A study of Mus musculus with 14 samples.

Results

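Interferon-stimulated genes are the genes that cells switch on when type I interferon reaches its receptor. The list examined here held 39 names. Its rule picks genes by name and uses no measured value, but the list was drawn up with earlier results of these data known. Of these, 38 matched a gene in the files, out of 47729 gene identifiers, and 1 name (Lgals3bp_none) matched none. All 38 passed the filter on low counts, together with 14279 genes in all.

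The 14 libraries were SMART-Seq2 libraries, a full-length cDNA method for small cell numbers, each made from the microglia of 1 retina of a wild type C57BL/6 mouse aged 12 weeks. The microbead group (3 libraries) came from eyes injected with microbeads, described as glaucoma in the labels, and the contralateral group (3 libraries) from the fellow eyes. The sham group (4 libraries) came from sham-injected eyes and the naive group (4 libraries) from uninjected eyes. Cells were sorted as CD11b+, Ly6c- and Fcrls+, with 100 to 600 cells per retina. No label says which retinas share a mouse, so p-values measure the spread between these retinas.

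Type I interferons bind the receptor made of Ifnar1 and Ifnar2, and the kinases Jak1 and Tyk2 then pass the signal on. A complex that includes Stat2 and Irf9 binds the interferon-stimulated response element (ISRE), a repeat of GAAA half-sites, whereas interferon gamma acts through the GAS element. The induced proteins block viral entry, sense or degrade foreign RNA, stop translation and damp the signal itself. In microglia the response is known from infection, ageing and neurodegeneration.

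Promoter sequences from 250 bases before to 50 bases after the start were found for 29 of the 38 genes in the RefSeq table (GRCm38.p6). The other 9 were Ifi27, Ifi27l2a, Zbp1, Oas2, Mx1, Mx2, Usp18, Rtp4 and Parp14. An ISRE core, spelled GAAA, any 2 bases and GAAA on either strand, lay in 17 of the 29, or 58.6%, against 3.99% of all 27025 genes in the table. The GAS core, TTCNNNGAA on either strand, lay in 7 of the 29, or 24.1%, against 9.55% of all genes. A match is a stretch of letters and not a measured binding site. The ISRE stretches of 8 genes described below are shown 5′ to 3′ on the strand of the gene, with cores in capitals, because they show how the same half-sites are arranged in genes whose levels behaved differently here. Cores on the opposite strand read TTTC, and touching cores can share a half-site.
Ifitm3: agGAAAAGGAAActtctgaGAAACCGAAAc
Ifitm2: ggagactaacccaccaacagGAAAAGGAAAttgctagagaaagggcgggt
Bst2: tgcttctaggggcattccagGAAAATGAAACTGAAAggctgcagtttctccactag
Oas1a: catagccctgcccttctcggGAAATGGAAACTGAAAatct
Trim30a: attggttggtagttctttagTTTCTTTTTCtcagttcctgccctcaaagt
Isg15: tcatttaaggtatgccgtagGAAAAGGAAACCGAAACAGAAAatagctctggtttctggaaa
Ifit1: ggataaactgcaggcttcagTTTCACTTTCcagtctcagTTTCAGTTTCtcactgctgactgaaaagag
Cxcl10: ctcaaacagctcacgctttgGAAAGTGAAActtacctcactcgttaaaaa

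The Ifitm3 stretch, at chr7:141010715-141010744 on the minus strand, holds the 30 bases that follow the RefSeq start. The other stretches lie before the start. They are Ifitm2 at chr7:140955978-140956027, Bst2 at chr8:71537567-71537622, Oas1a at chr5:120907526-120907565, Trim30a at chr7:104465200-104465249, Isg15 at chr4:156200855-156200916 and Cxcl10 at chr5:92349073-92349122, all on the minus strand, and Ifit1 at chr19:34640765-34640833 on the plus strand. Isg15 carried 3 touching cores and Bst2 and Oas1a 2 each, in the same spacing. No ISRE core was found in this window of Slfn2 or Irf7.

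Total reads assigned to genes ran from 1.34 to 14 M per library. Microbead 1 had the fewest, 1.34 M, and microbead 1 and contralateral 2 were the only libraries with reads in fewer than 12000 genes. Of the 38 genes, 8 had no reads in microbead 1 and 13 had none in contralateral 2, against 0 to 4 elsewhere. Short transcripts stood higher than long ones in the microbead libraries. The median log2 level relative to naive over genes of at most 1000 bases, minus that over genes of more than 4000, was 1.86, 0.76 and 1.26 in microbead 1 to 3. It was 0.46, 0.98 and -0.27 in the contralateral libraries and between -0.26 and 0.15 in sham and naive libraries.

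Levels below are CPM, reads scaled to a common library size, given in the order of the library numbers, and levels of different genes are compared only in FPKM, which also divides by length. By mean FPKM over the 14 libraries the highest listed genes were Ifi27l2a (492), Ifitm3 (241), Bst2 (225) and Ifi27 (135). The lowest were Ifi44 (1.45), Oas3 (1.80), Gbp2 (2.49), Ifit1 (2.91) and Rsad2 (3.64), so several of the most familiar induced genes were close to the lower end in all groups.

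Microbead retinas were compared with sham and naive retinas to ask whether microglia of the microbead eyes carried an interferon response. A small set of genes stood higher in every microbead library, led by Ifitm3 and Ifi27l2a, while the Ifit family, Isg15, Irf7, Mx1 and most others scattered across the groups. Of the 38 genes, only Ifitm3 passed edgeR's quasi-likelihood test after Benjamini-Hochberg adjustment over all genes, and only against naive. In the plot of all fitted changes, standard errors were small for the abundant genes and exceeded 2 log2 units in all 3 comparisons for Ifit1, Ifi44, Gbp2, Oas3 and Isg20.

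**Figure D1:**
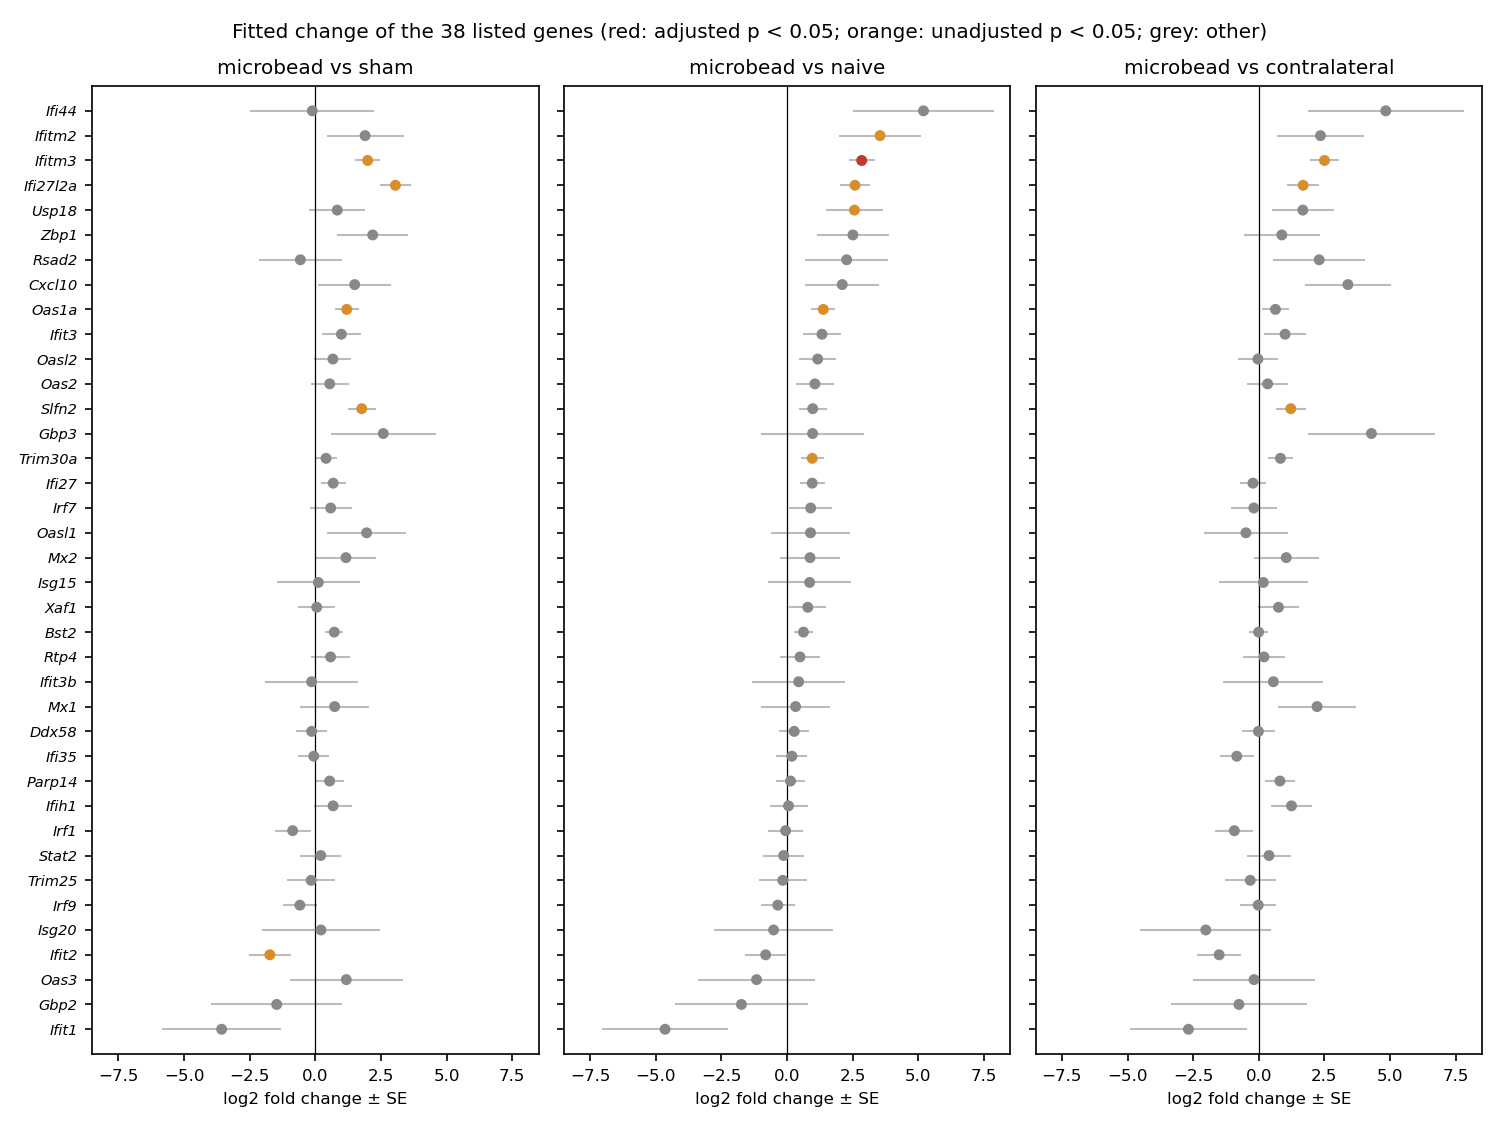
Fitted log2 fold change (horizontal axis) ± SE of the 38 listed genes, ordered by the change against naive, in microbead against sham, naive and contralateral. Ifitm3 against naive (2.84) is the only red point, and Ifi27l2a and Ifitm3 stand to the right of 0 in all 3 panels.

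Ifitm2 and Ifitm3 encode membrane proteins that block the entry of viruses into cells, and Bst2 encodes tetherin, which holds budding virus at the cell surface. Ifitm3 (chromosome 7, 141009586 to 141010770, minus strand, protein coding, mm10) stood at 437, 284 and 94.2 CPM in microbead, 36.7, 26.8 and 79.8 in contralateral, 73.9, 77.7, 53.1 and 68.3 in sham and 50.3, 29.7, 33.7 and 37.8 in naive libraries. All 3 microbead libraries lay above the other 11, although microbead 3 was only slightly above contralateral 3. The mean was 272 ± 172 CPM (SD, n = 3) in microbead and 37.9 ± 8.93 (n = 4) in naive libraries, and the log2 fold change was 2.84 (SE 0.49, adjusted p = 0.0269). Against sham it was 1.99 (SE 0.48, adjusted p = 0.103) and against contralateral 2.50 (SE 0.54, adjusted p = 0.0760), and by edgeR both missed the threshold.

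The call of Ifitm3 against naive was lost without microbead 1 (adjusted p = 0.0983) and without naive 1, 2, 3 or 4 (adjusted p = 0.0791, 0.131, 0.107 and 0.0956). The Ifitm3 transcript is short, at 678 bases, and removal of the length trend brought the change down to 1.60 (SE 0.52) with an adjusted p of 0.494, which also ended the call. Over all 17 alternatives the log2 fold change stayed between 1.60 and 3.24, and the adjusted p ran from 7.03e-06 to 0.494.

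Ifitm2 (chromosome 7, 140954837 to 140955987, minus strand) stood at 26.6, 41.6 and 53.0 CPM in microbead, 5.70, 0 and 17.98 in contralateral, 2.90, 21.1, 16.8 and 2.72 in sham and 6.10, 2.40, 5.41 and 0 in naive libraries. Every microbead library exceeded every other library. The log2 fold change was 3.54 (SE 1.55, adjusted p = 0.440) against naive and 1.89 (SE 1.47, adjusted p = 0.742) against sham. The counts of Ifitm2 are uncertain in part, because 55.5% of the 31-base words of its transcripts also occur in transcripts of other genes, 38.1% in the overlapping Gm45717. For Ifitm3 the share was 20.5%.

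Bst2 (chromosome 8, 71534255 to 71537456, minus strand) stood at 132, 154 and 136 CPM in microbead, 159, 169 and 96.7 in contralateral, 77.9, 67.6, 83.8 and 113 in sham and 108, 92.7, 60.5 and 104.5 in naive libraries. The microbead libraries were above all sham and naive libraries but not above contralateral 1 and 2. Its log2 fold change was 0.72 (SE 0.35, adjusted p = 0.514) against sham and 0.62 (SE 0.35, adjusted p = 0.540) against naive, and it turned to -0.19 and -0.25 with the length trend removed.

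The Ifi27 family encodes small hydrophobic proteins of mitochondria and membranes. Ifi27l2a (chromosome 12, 103442167 to 103443680, minus strand) stood at 481, 264 and 93.8 CPM in microbead, 135, 97.8 and 27.0 in contralateral, 27.9, 43.9, 38.01 and 25.2 in sham and 53.6, 24.2, 31.6 and 76.7 in naive libraries. All microbead libraries lay above all sham and naive libraries, and contralateral 1 and 2 lay above microbead 3. The log2 fold change was 3.05 (SE 0.59, adjusted p = 0.0664) against sham, 2.58 (SE 0.58, adjusted p = 0.0744) against naive and 1.69 (SE 0.62, adjusted p = 0.329) against contralateral.

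Ifi27l2a has the shortest transcript of the list, 463 bases, and with the length trend removed its log2 fold change was 1.23 against sham and 0.88 against naive. Without microbead 3 it passed the test against both (adjusted p = 0.0159 and 0.0160), and without microbead 1 it did not (adjusted p = 0.256 and 0.301). Its neighbour Ifi27 stood at 79.0, 65.5 and 147 CPM in microbead, 156, 122 and 62.6 in contralateral, 89.5, 44.7, 75.5 and 34.0 in sham and 53.8, 39.4, 40.3 and 67.1 in naive libraries. The groups overlapped for Ifi27, and its log2 fold change against naive was 0.96 (SE 0.47) in microbead and 1.18 (SE 0.47) in contralateral libraries.

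**Figure D2:**
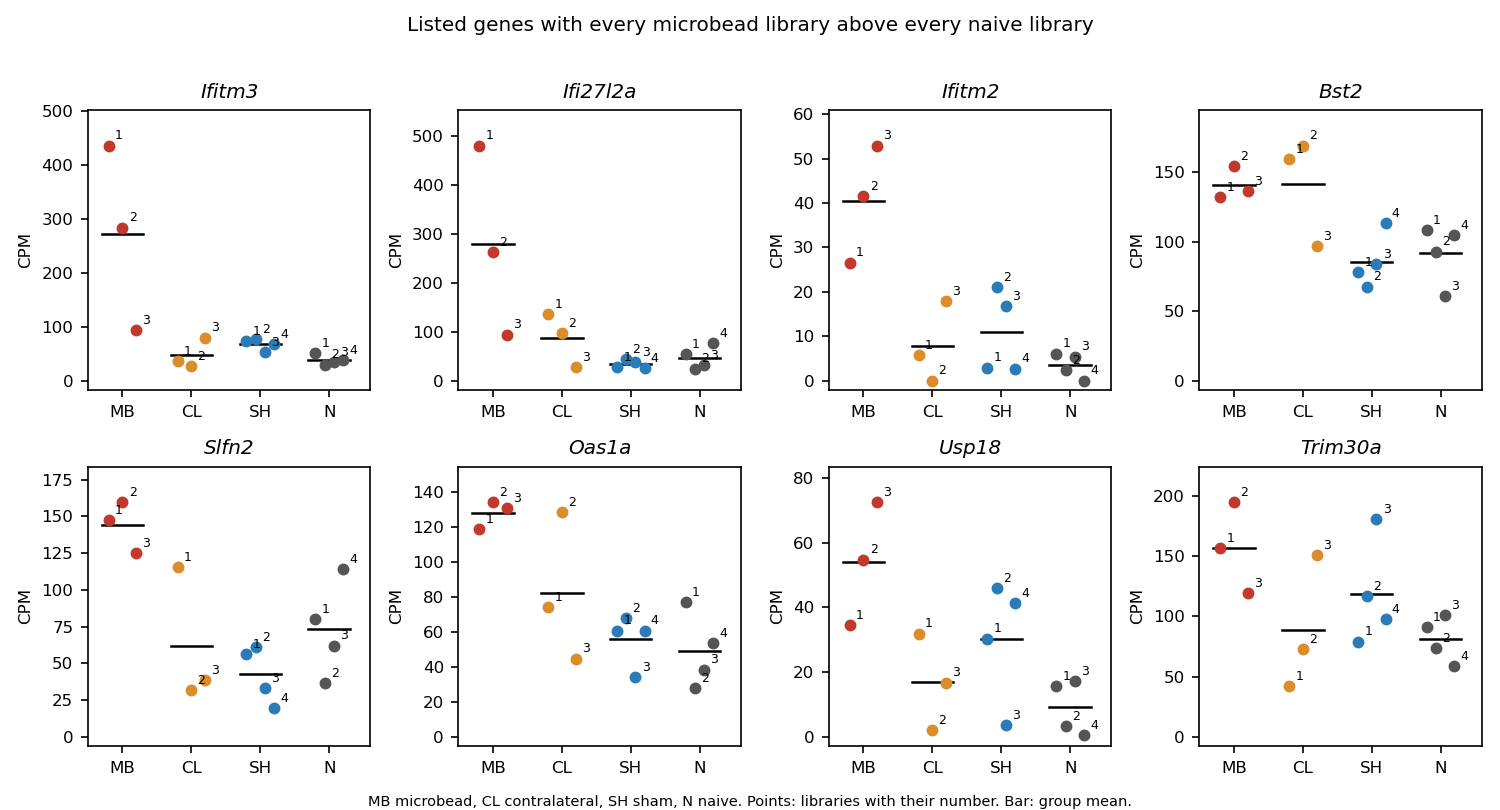
Level in CPM (vertical axis) of 8 listed genes in each library, with the library number beside each point and a bar at the group mean. The 8 genes were picked from the 10 listed genes in which every microbead library lies above every naive library. Zbp1 and Oasl2 also have this property and are not shown here. Microbead 1 leads for Ifitm3 and Ifi27l2a, at 437 and 481 CPM.

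The Oas proteins make the messenger that activates RNase L, which degrades RNA. Oas1a (chromosome 5, 120896256 to 120907521, minus strand) stood at 118.5, 134 and 130.5 CPM in microbead, 74.0, 128.5 and 44.7 in contralateral, 60.7, 68.0, 34.0 and 60.7 in sham and 77.0, 28.0, 38.4 and 53.6 in naive libraries. The microbead libraries were close together, with an SD of 8.25 CPM around a mean of 128, and above every sham and naive library. The log2 fold change was 1.38 (SE 0.46, adjusted p = 0.281) against naive and 1.19 (SE 0.46, adjusted p = 0.422) against sham, and 1.35 and 1.21 with the length trend removed.

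DESeq2's Wald test and limma voom called Oas1a against naive, among 574 and 204 genes of 14279, whereas edgeR called 30 genes and not Oas1a. Reads of Oas1a are hard to place, because 68.7% of its 31-base words also occur in Oas1g. Oas1g stood at 2.15, 81.1 and 52.5 CPM in microbead and 5.42, 2.70, 12.4 and 31.1 in naive libraries, so it was low in microbead 1, where Oas1a was high. Against naive the log2 change of Oas2 was 1.06 (SE 0.72), of Oas3 -1.16 (SE 2.23), of Oasl1 0.89 (SE 1.49) and of Oasl2 1.17 (SE 0.71). Oasl2, named after its values were seen, was higher in every microbead library than in every sham and naive library.

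Slfn2 encodes a Schlafen protein that keeps immune cells quiescent. It (chromosome 11, 83065112 to 83070678, plus strand) stood at 147, 159.9 and 125 CPM in microbead, 115, 32.0 and 38.5 in contralateral, 56.1, 61.0, 33.4 and 19.3 in sham and 80.3, 36.5, 62.1 and 114 in naive libraries. All 3 microbead libraries stood above the other 11. The log2 fold change was 1.76 (SE 0.54, adjusted p = 0.245) against sham, 0.98 (SE 0.53, adjusted p = 0.530) against naive and 1.22 (SE 0.58, adjusted p = 0.431) against contralateral. With the length trend removed these were 1.70, 0.87 and 1.18.

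Usp18 removes Isg15 from proteins and shuts off the type I receptor, and Trim30a is a ubiquitin ligase that restrains inflammatory signalling. Usp18 (chromosome 6, 121245906 to 121270917, plus strand) stood at 34.5, 54.8 and 72.7 CPM in microbead, 31.9, 2.05 and 16.8 in contralateral, 30.4, 46.1, 3.72 and 41.4 in sham and 15.6, 3.37, 17.2 and 0.411 in naive libraries. It was higher in every microbead library than in any naive or contralateral library and overlapped with sham. Its log2 fold change was 2.56 (SE 1.10, adjusted p = 0.429) against naive and 0.83 (SE 1.06, adjusted p = 0.892) against sham.

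Trim30a (chromosome 7, 104409025 to 104465193, minus strand) stood at 157, 195 and 119.5 CPM in microbead, 42.0, 72.8 and 151 in contralateral, 79.0, 117, 181 and 98.0 in sham and 90.8, 73.4, 101 and 58.5 in naive libraries. The microbead libraries exceeded the naive ones and overlapped with sham and contralateral. The log2 fold change against naive was 0.96 (SE 0.43, adjusted p = 0.455), and 1.09 with the length trend removed. Isg15 itself, the ubiquitin-like protein after which the system is named, was low in all groups, with a log2 fold change of 0.86 (SE 1.58) against naive and 0.11 (SE 1.59) against sham. Trim25, the ligase that activates the RNA sensor Ddx58, had one of -0.17 (SE 0.92) against naive.

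The Ifit proteins bind foreign RNA and stop its translation, and they are among the strongest targets of interferon. Ifit1 (chromosome 19, 34640871 to 34650009, plus strand) stood at 0, 0.223 and 1.14 CPM in microbead, 0.19, 0 and 9.79 in contralateral, 3.35, 3.79, 2.12 and 15.7 in sham and 0.949, 0, 29.4 and 22.3 in naive libraries. Every microbead library was below every sham library, as for 1011 of all 14279 genes, but the microbead group held only 15 reads in all. The log2 fold change against sham was -3.57 (SE 2.26, adjusted p = 0.635).

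Ifit2 stood at 11.5, 29.5 and 2.64 CPM in microbead, 37.3, 24.8 and 62.6 in contralateral, 24.8, 58.4, 47.4 and 64.1 in sham and 15.6, 35.7, 37.1 and 14.4 in naive libraries. Its log2 fold change against sham was -1.74 (SE 0.80, adjusted p = 0.495). Ifit3 went the other way in 2 of the 3 microbead libraries, at 13.6, 150 and 189.5 CPM in microbead, 69.0, 37.2 and 70.9 in contralateral, 24.4, 40.6, 72.2 and 101 in sham and 17.8, 38.6, 106 and 26.1 in naive libraries.

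Microbead 2 and 3 were the highest libraries for Ifit3 and microbead 1 the lowest, and the log2 fold change against sham was 0.99 (SE 0.73, adjusted p = 0.713). Of the 31-base words of Ifit3, 61.8% also occur in Ifit3b, whose own log2 fold change against sham was -0.15 (SE 1.78). The fitted changes of the 4 Ifit genes against sham therefore differed in sign. None of them passed the test, so their directions were not resolved.

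**Figure D3:**
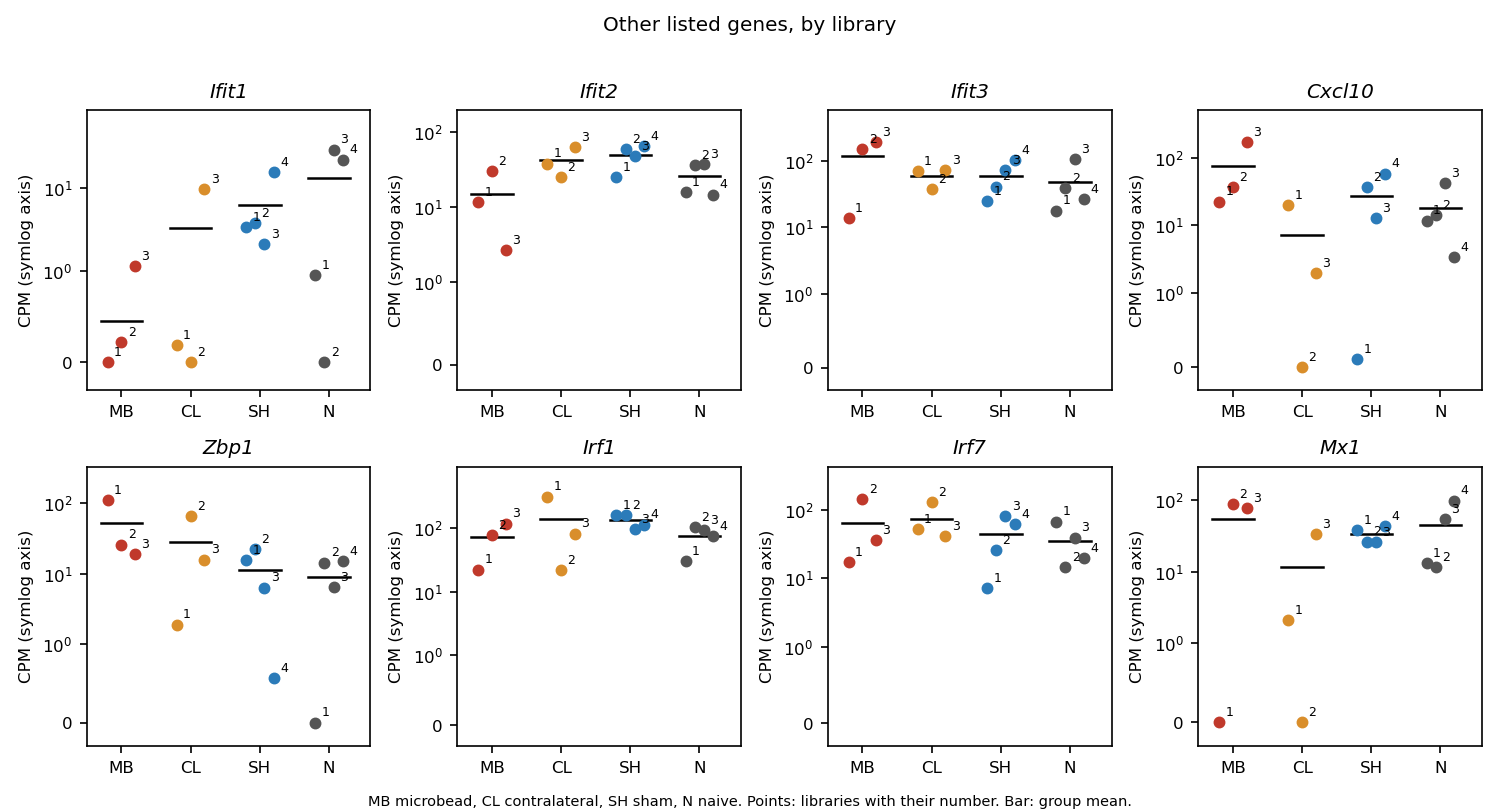
Level in CPM (vertical axis, linear below 1 and logarithmic above) of 8 further listed genes in each library, with the library number beside each point and a bar at the group mean. The groups overlap in most panels, and microbead 1 lies below microbead 2 and 3 for Ifit3 (13.6 CPM) and Mx1 (0).

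Zbp1 senses nucleic acids in Z form and can trigger cell death. It stood at 109.9, 25.8 and 19.2 CPM in microbead, 1.90, 66.2 and 15.8 in contralateral, 15.7, 22.5, 6.37 and 0.573 in sham and 0, 14.3, 6.53 and 15.2 in naive libraries. The microbead libraries lay above all naive libraries, and the log2 fold change was 2.51 (SE 1.37, adjusted p = 0.535). The RNA sensors Ifih1 and Ddx58 differed by 0.06 (SE 0.73) and 0.27 (SE 0.58) log2 units against naive, without passing the test.

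Irf1 and Irf7 are transcription factors of the response, and Irf9 and Stat2 are parts of the complex that binds the ISRE. Irf1 stood at 22.3, 78.2 and 118 CPM in microbead, 316, 22.1 and 82.3 in contralateral, 163, 160.5, 98.3 and 115 in sham and 30.6, 105, 93.7 and 76.0 in naive libraries. Its spread within the contralateral group, an SD of 155 around a mean of 140.2 CPM, was as wide as its level. Irf7, named after its values were seen because it is the amplifier of the response, differed from naive by 0.90 log2 units (SE 0.81, adjusted p = 0.775) and from sham by 0.58 (SE 0.81, adjusted p = 0.903). For Irf9 the log2 differences from naive and sham were -0.36 (SE 0.65) and -0.59 (SE 0.65), and for Stat2 -0.13 (SE 0.78) and 0.20 (SE 0.78).

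Mx1 and Mx2 belong to a family of dynamin-like GTPases that trap viral particles. GENCODE lists Mx2 as a polymorphic pseudogene, and only transcripts were measured here. Gbp2 and Gbp3 are GTPases that attack the vacuoles of pathogens. Mx1 stood at 0, 88.1 and 76.5 CPM in microbead, 2.09, 0 and 33.1 in contralateral, 37.5, 26.2, 26.0 and 43.2 in sham and 13.02, 11.4, 54.1 and 98.1 in naive libraries. Microbead 1 had no reads of Mx1 while microbead 2 and 3 exceeded all sham libraries. Against naive, the log2 differences were 0.87 (SE 1.14) for Mx2, -1.74 (SE 2.52) for Gbp2 and 0.97 (SE 1.96) for Gbp3.

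Cxcl10 encodes a chemokine that attracts T cells. It stood at 22.3, 36.0 and 167 CPM in microbead, 19.8, 0 and 1.92 in contralateral, 0.112, 36.2, 12.6 and 57.9 in sham and 11.7, 14.01, 41.3 and 3.37 in naive libraries. Each microbead library was above each contralateral library, at a log2 difference of 3.39 (SE 1.64, adjusted p = 0.438), and the microbead group overlapped with sham and naive. Exons of Cxcl10 overlap those of Art3 on the other strand, and the sources used here do not say that counting used strand.

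Among the remaining effectors, Ifi35 stood at 36.6, 119.7 and 70.3 CPM in microbead, 66.9, 276 and 64.7 in contralateral, 83.3, 59.8, 74.0 and 100.1 in sham and 144, 35.8, 49.7 and 38.7 in naive libraries. Ifi44 was read in 6 of 14 libraries, at 13.3 and 1.67 CPM in microbead 2 and 3, 0.448 in contralateral 3, 10.2 and 11.7 in sham 2 and 4 and 0.542 in naive 1. Its naive group held 4 reads in all, and the fitted change against naive was 5.19 (SE 2.69, adjusted p = 0.507). Rsad2, Isg20, Xaf1, Rtp4 and Parp14 had log2 fold changes against naive of 2.27 (SE 1.58), -0.51 (SE 2.28), 0.79 (SE 0.71), 0.49 (SE 0.75) and 0.13 (SE 0.54). The microbead and naive groups overlapped in each case.

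Counted over the list, 29 of 38 genes had a positive log2 fold change in microbead against naive, with a median of 0.87, while over all genes tested 45.0% were positive and the median was -0.14. After adjustment 1 listed gene passed, against 0.21% of all genes. At an unadjusted p under 0.05, 6 listed genes were higher (Ifitm3, Ifi27l2a, Oas1a, Usp18, Ifitm2 and Trim30a) and 0 lower. Of all 14279 genes, 4.72% were called higher and 830 were called lower. In 10 listed genes every microbead library lay above every naive library, against 4.85% of all genes.

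Against sham, 27 of 38 were positive with a median of 0.58, where all genes had a median of -0.12 and 45.7% positive. By edgeR 0 listed genes passed after adjustment, against 0.014% of all genes. DESeq2's Wald test called 3 listed genes and 471 of all 14279, and limma voom called 1 and 89. At an unadjusted p under 0.05, 4 were higher (Ifi27l2a, Ifitm3, Slfn2 and Oas1a) and 1 lower (Ifit2). Of all 14279 genes, 4.48% were called higher and 753 were called lower. Non-overlapping groups with microbead higher were seen for 7 listed genes and 5.11% of all genes. With microbead lower they were seen for 1 listed gene, Ifit1, and for 1011 of all 14279 genes. These medians and counts describe a list chosen with earlier results known, and both comparisons share the microbead libraries.

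Among the fits without 1 library, the medians were lowest without microbead 2, at 0.17 against sham and 0.27 against naive. The medians of all genes were then -0.34 and -0.37. With the length trend removed the median against naive was 0.42 and against sham 0.45, while the medians of all genes were -0.26 and -0.25. The 7 listed genes of at most 1000 bases had a median of 0.96 against naive, where the 2137 genes of that length had 0.51. The 16 listed genes above 1000 and up to 2000 bases had one of 0.94, where all 4596 had -0.02. The 14 listed genes above 2000 and up to 4000 bases had one of 0.09, where all 5650 had -0.34.

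**Figure D4:**
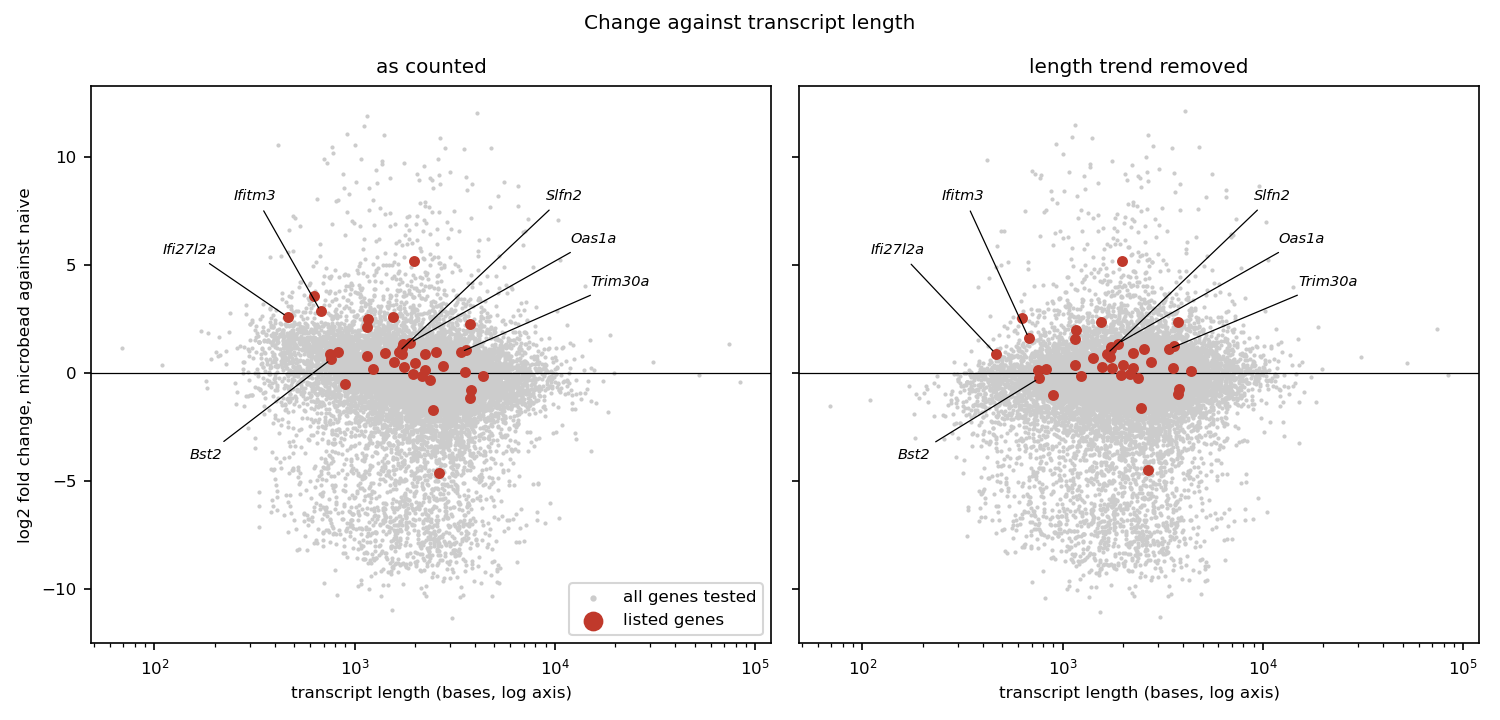
Log2 fold change of microbead against naive (vertical axis) plotted on transcript length (horizontal axis, logarithmic) for all genes tested and the listed genes, as counted and with the length trend removed. Ifitm3 moves from 2.84 to 1.60 and Bst2 from 0.62 to -0.25, whereas Oas1a moves from 1.38 to 1.35.

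The listed genes did not peak in the same microbead library. Microbead 2 held the highest level of 11 of the 38 genes (28.9%) and of 9.05% of all genes tested. Microbead 3 held the highest of 7 (18.4%, against 7.82%), and microbead 1 that of 3 (7.89%, against 14.5%). The median log2 level of the listed genes relative to naive was -0.27, 1.39 and 1.02 in microbead 1, 2 and 3, and over all genes -1.05, -0.12 and 0. Microbead 1 thus combined the highest Ifitm3, Ifi27l2a and Zbp1 with no reads of Ifit1, Ifit3b, Oas3, Oasl1, Mx1, Gbp2, Isg20 and Ifi44. In sham 4, Ifit1, Rsad2 and Ifi44 reached 15.7, 46.0 and 11.7 CPM.

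**Figure D5:**
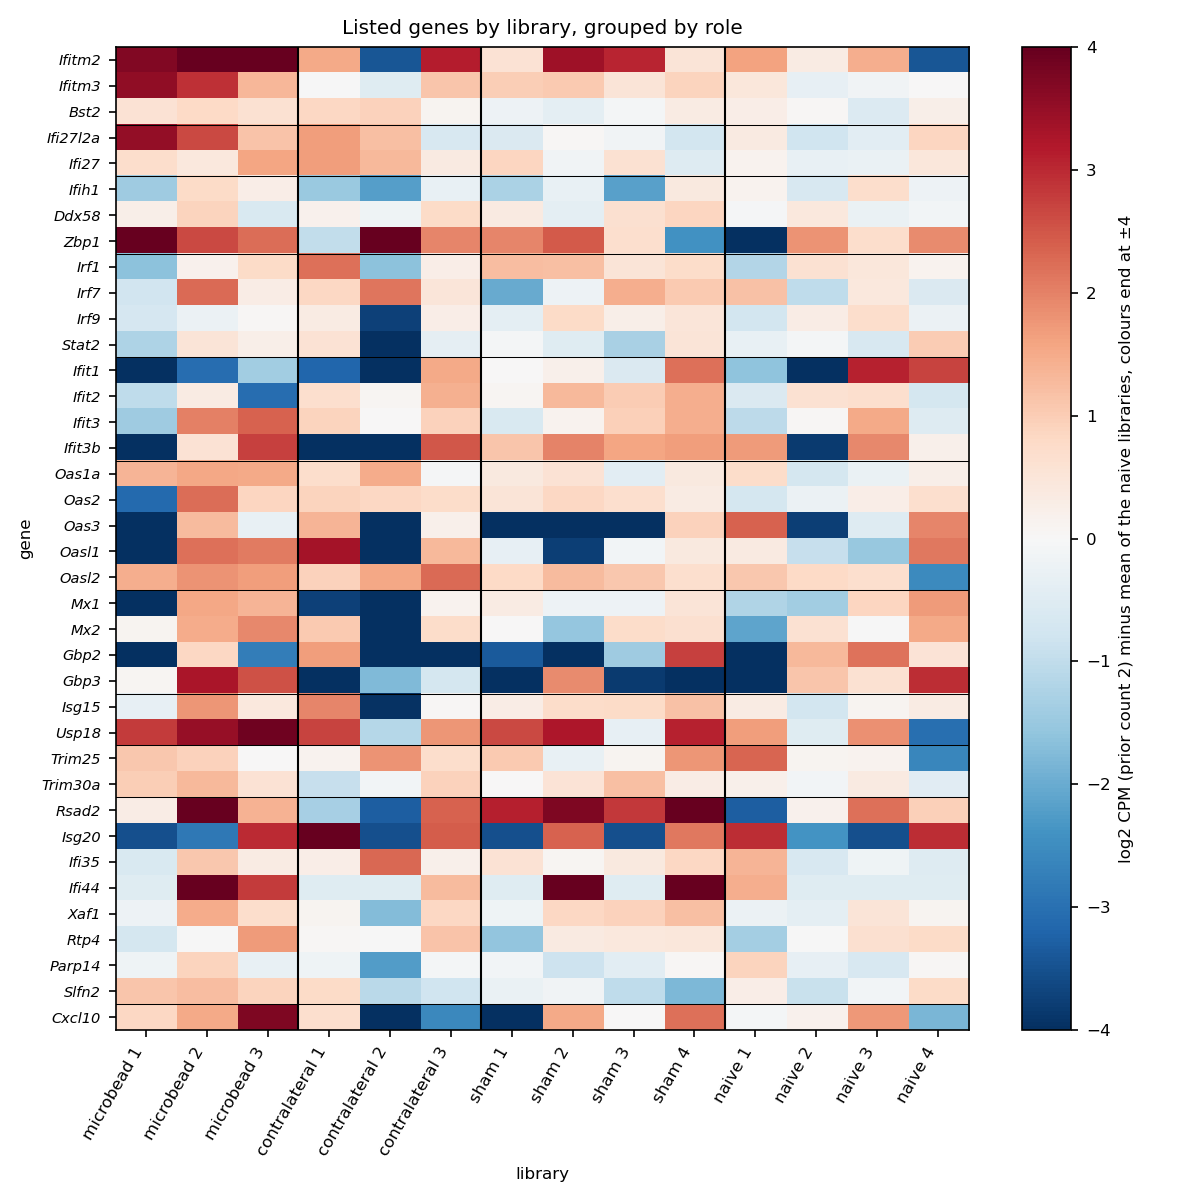
Log2 CPM of each listed gene (rows, grouped by role) in each library (columns), minus the mean of the naive libraries, with colours that end at 4 and -4. The rows of Ifitm2, Ifitm3 and Ifi27l2a are red in all 3 microbead columns, while microbead 1 and contralateral 2 are dark blue in many rows, with 8 and 13 genes without reads.

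The genes with an ISRE core in the promoter window had a median log2 fold change of 0.86 against naive (17 genes, 13 positive), and the 12 genes with a promoter but no core one of 0.48 (7 positive). Against sham the medians were 0.67 and -0.01, and against contralateral 0.63 and -0.26. The order was the reverse for contralateral libraries, at -0.03 and 0.78 against naive and -0.46 and 0.35 against sham, and the medians were 0.34 and 0.28 in sham against naive. The 9 genes with no promoter in the table had medians of 0.96 against naive, 0.73 against sham and 0.88 against contralateral, above the genes with a core in each case. Genes at both ends carried cores: Ifitm3, Ifitm2 and Oas1a stood higher in the microbead libraries, whereas Ifit1, with 2 cores, had 15 reads there. No test was made of this split.

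Microbead and contralateral retinas were compared to set the injected eye against its fellow. Of the 38 genes, 23 had a positive log2 fold change, with a median of 0.47 against -0.08 over all genes. Without microbead 2 this median was 0.16, and without contralateral 1 it was 0.83, where those of all genes were -0.22 and 0.01. By edgeR 0 passed after adjustment, against 0.028% of all genes. DESeq2's Wald test called 1 listed gene, Ifitm3, and 666 of all 14279 genes. At an unadjusted p under 0.05, 3 were higher (Ifitm3, Ifi27l2a and Slfn2), where 4.89% of all genes were called higher. Non-overlapping groups were seen for 6, Ifitm2, Ifitm3, Slfn2, Usp18, Cxcl10 and Gbp3, against 5.2% of all genes.

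The contralateral and sham eyes were set against naive eyes to show what the other eye and an injection alone did to these genes. In contralateral against naive the median was 0.31, 0 genes passed after adjustment (0% of all genes), and 1 listed gene, Ifi27, was higher at an unadjusted p under 0.05, where 2.9% of all genes were. Without contralateral 3 that median was -0.11, where the median of all genes moved from -0.06 to -0.29. In contralateral against sham the median was -0.10, 0 genes passed (0% of all genes) and 1, Ifi27l2a (1.36, SE 0.57), was higher at an unadjusted p under 0.05, where 2.79% of all genes were. The sign of that median was not stable, at 0.12 without sham 4, 0.05 without contralateral 2 and -0.21 without contralateral 1. The medians of all genes in these fits were -0.02, -0.04 and -0.23.

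In sham against naive the median was 0.26 and 0 genes passed (0% of all genes). At an unadjusted p under 0.05, 0 listed genes were higher or lower, where 1.31% of all genes were higher and 193 of 14279 lower. The median was 0.11 without sham 4 and also 0.11 without naive 2, where that of all genes was -0.02 and 0.01. Ifitm3 lay higher in every sham library than in every naive library, with a log2 fold change of 0.85 (SE 0.44), and so did Rsad2, with 2.84 (SE 1.55). Such non-overlapping groups with sham higher were seen for 230 of all 14279 genes. By DESeq2's Wald test and limma voom, 0 listed genes passed in these 3 comparisons. Over all 14279 genes, DESeq2's Wald test called 69, 68 and 28 in turn, and limma voom 0.

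The interferon pathway outside the list was represented by 122 genes, of which 96 were tested. The 20 genes for interferons themselves yielded reads for 3, none of them in a microbead library. Ifnb1 had 80 reads in all, from sham 4 (4.08 CPM) and naive 3 (1.83), Ifnab had 21 in contralateral 3 and Ifnk 4 in all. Interferon transcripts from other retinal cells were outside what sorted microglia can show.

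The receptor chain Ifnar1 stood at 79.0, 165 and 147 CPM in microbead and 184, 171.5, 124 and 174 in naive libraries, and Ifnar2 at 188, 222 and 372 and at 165, 202, 244 and 296.5. Their log2 fold changes against naive were -0.32 (SE 0.41) and 0.20 (SE 0.33). Against naive the log2 differences were -0.57 (SE 0.42) for Jak1 and 0.39 (SE 0.41) for Tyk2. None of the 5 receptor genes tested passed in any comparison by edgeR, where 0% to 0.21% of all genes did. Of the 17 sensors and adaptors 5 were positive and 12 negative against naive, and of the 7 inhibitors 4 were positive and 3 negative. Over all genes tested 45% were positive in that comparison.

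Of 62 further induced genes tested, 47 were positive against naive, with a median of 0.50, and 43 against sham, with a median of 0.47, where 45.0% and 45.7% of all genes were positive. After adjustment 1 of the 62 passed against naive, where 0.21% of all genes did. It was Ifi30, a thiol reductase of antigen processing, at 1308, 587 and 626 CPM in microbead and 187, 149, 157 and 148 in naive libraries (log2 fold change 2.39, SE 0.37, adjusted p = 0.0159). Eif2ak2, the kinase PKR that halts translation on double-stranded RNA, stood at 134, 96.6 and 73.2 CPM in microbead and 28.1, 27.7, 39.5 and 48.7 in sham libraries, a log2 difference of 1.49 (SE 0.46, adjusted p = 0.254). Shisa5 stood at 565, 375 and 328.5 CPM in microbead and 199, 209, 203 and 229 in sham libraries, a log2 difference of 1.01 (SE 0.28, adjusted p = 0.155). At an unadjusted p under 0.05, 7 of the 62 were higher and 1 was lower against naive, and likewise against sham. Of all 14279 genes, 4.72% were higher and 830 lower against naive, and 4.48% were higher and 753 lower against sham. The lower gene of the 62 was Trim21, named after its values were seen, an antibody receptor of the cytosol and ubiquitin ligase. It stood at 0, 0.112 and 0.0879 CPM in microbead, 0 to 9.37 in sham and 3.25, 7.79, 7.16 and 3.62 in naive libraries. Its log2 difference from naive was -5.84 (SE 2.62, adjusted p = 0.454). Iigp1, a GTPase induced by interferon gamma, stood at 0, 12.2 and 30.4 CPM in microbead, 0, 0, 0 and 0.0716 in sham and 0, 0, 0 and 23.5 in naive libraries.

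The sorted cells carried microglial markers, with all 11 read in every library and a summed level of 15100, 20200 and 33400 CPM in microbead 1 to 3. It was 25300 to 39100 in contralateral, 33100 to 36900 in sham and 22100 to 34900 in naive libraries. Microbead 1 and 2, which had the highest Ifitm3 and Ifi27l2a, thus had the lowest microglial sums of the 14 libraries. Infiltrating monocytes and macrophages express many of the listed genes, and the gate for Ly6c- and Fcrls+ cells was set, per the labels, to take resident microglia. The sum over 10 of their genes was 165 to 284 CPM in microbead, 32.8 to 190 in contralateral, 29.5 to 154 in sham and 2.71 to 90.8 in naive libraries, so the microbead libraries lay above all sham and naive libraries and overlapped with contralateral. Between 2 and 8 of the 10 were read per microbead library, and Ly6c2 and Chil3 had 0 reads in every library. Ms4a7 (88.3, 102 and 96.3 CPM) and Cd44 (76.8, 23.3 and 25.6) in microbead 1 to 3 lay above all sham and naive libraries. They were the only ones read in microbead 1. Fn1 and S100a4 were highest in microbead 2 (111) and 3 (31.9). Ccr2 was highest in sham 2 (40.2), F13a1 and Plac8 in contralateral 3 (100 and 10.9) and Vcan in naive 4 (12.1). The sum over 8 border-associated macrophage genes was lower, at 134 to 236 CPM in microbead and 342 to 1020 elsewhere. Most of it was Stab1 alone, at 127, 197 and 217 CPM in microbead and 319 to 1010 elsewhere. Of the 8 genes, 2, 1 and 5 were read in microbead 1 to 3. Rod photoreceptor genes, 11 in all, summed to 871, 4300 and 492 CPM in microbead 1 to 3. Their sum was 2230 to 3800 in contralateral, 826 to 1630 in sham and 255 to 3380 in naive libraries. Lymphocyte and neutrophil genes summed to less than 1 CPM in every library. The part of these cells, and of the lower microglial sums, in the levels of Ifitm3, Ifi27l2a and the other genes was not tested, and in these sorted pools a change in some cells and a change in all cells cannot be told apart, nor can fewer cells and less RNA per cell.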

How the data were processed

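Expected counts, estimated reads per gene that are scaled neither to depth nor to length, and FPKM were deposited by the authors for each library, per the file headers, and a series-wide FPKM table by the authors supplied gene names. The submitters' processing notes name the build mm10 and the tools DESeq2 1.30.1, Salmon 1.4.0 and R 4.0.3, without roles. After rounding, the expected counts went into edgeR 4.0.16 under R 4.3.3 (filterByExpr with a minimum count of 10, TMM, glmQLFit with robust estimation, glmQLFTest, two-sided). A single model held the 14 libraries and a coefficient per group, leaving 10 residual degrees of freedom, and its common coefficient of variation was 1.13. Within each of 6 comparisons the Benjamini-Hochberg adjustment ran over 14279 genes, and 0.05 was the limit. The standard error of a change was taken from its size and the root of F. The procedure was tested on simulated data that held no length trend, so that test does not bear on the changes that depended on length.

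To remove the length trend, each library's deviation from the gene means was smoothed on log2 length (lowess, span 0.5, genes with 10 CPM or more) and entered as an offset. Other alternatives were DESeq2 1.42.0 (size factors, Wald test), limma 3.58.1 (voom with quality weights), no filter, at least 50 reads in 3 libraries, a fit of only the groups compared, a replicate block, libraries with at least 12000 genes, identifiers of the series-wide table only, and leaving out each library. Values in every library are given for listed genes that passed the test, the 15 with the smallest p in a microbead comparison and the most abundant of each role. Pathway genes are named where the unadjusted p against sham or naive was under 0.01, beside a few of the signalling chain named whatever their values: Ifnar1, Ifnar2, Jak1, Tyk2 and 1 that is not reported here. Members, lists and alternatives were chosen with earlier results of these data known. Gene coordinates are from GENCODE M21 and promoters from RefSeq, and reads carry no molecular identifiers.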

Additional observations from a re-analysis of the deposited data

Results flagged for a closer look

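In groups of 4 libraries, a level was marked where the gap to the nearest other library took up more of the group's range than Dixon's 95% limit. This was examined in 36 sham and naive groups of the genes given by library, and 3 were marked, where chance marks about 1 in 20. Ifit1 stood at 15.67 CPM in sham 4, where the next sham library had 3.79. Ifi35 stood at 143.6 CPM in naive 1, where the next naive library had 49.7. Ifi44 stood at 0.5423 CPM in naive 1, which was 4 reads, and at 0 in the other naive libraries.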

How the results depend on the processing

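The number of listed genes past the test in microbead against sham, naive and contralateral was 0, 1 and 0. Over all 14279 genes it was 2, 30 and 4. The listed count was 1, 2 and 1 without the filter on low counts, where 139, 162 and 157 of 25656 genes passed. With DESeq2's Wald test it was 3, 3 and 1, where 471, 574 and 666 of 14279 genes passed. With limma voom it was 1 against sham and 3 against naive, where 89 and 204 genes passed. Against naive it was 0 for the compared groups alone, 0 with the length trend removed and 0 with the replicate number as a block, where the adjusted p of Ifitm3 was 0.0719. Leaving out 1 library gave 0 to 2 against sham, 0 to 2 against naive and 0 to 1 against contralateral. The highest counts came without microbead 3, where 134, 168 and 162 of 15306 genes passed in turn. For contralateral the highest count also came without contralateral 3, where 56 of 15211 genes passed. The median against naive was 0.42 with the length trend removed. Leaving out 1 library gave medians of 0.17 to 0.76 against sham, 0.27 to 1.02 against naive and 0.16 to 0.83 against contralateral. Those of all genes ran from -0.37 to -0.08, from -0.41 to -0.09 and from -0.26 to 0.09. In contralateral against naive the median of the listed genes was 0.60 with the replicate block, and -0.11 to 0.46 when 1 library was left out. In contralateral against sham it was 0.08 with the block and -0.21 to 0.12 without 1 library, and in sham against naive 0.11 to 0.33. Without 1 library the medians of all genes in these comparisons were -0.29 to -0.02, -0.24 to -0.01 and -0.04 to 0.01. Bst2 turned to -0.19 against sham and -0.25 against naive with the length trend removed. Same-numbered libraries correlated at -0.05 to 0.11, with 1 of 19 pairs above 0.1, so the numbers were not taken as pairing. Causes were not tested beyond what each alternative changes. The common coefficient of variation of 1.13 and the 1.34 M reads of microbead 1 limit what the rarer genes can show.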
